A study of Mus musculus with 4 samples.

Results

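Mast cells and basophils were followed in liver aspirates through 10 genes that mark them: Cma1, Mcpt4, Tpsb2, Cpa3, Mcpt8, Fcer1a, Ms4a2, Hdc, Cd200r3 and Kit. They are 10 of the 33696 genes in the count matrices, taken by symbol, and each matched 1 row. The genes were chosen with earlier results of these libraries known. The cells were selected on their UMIs (unique molecular identifiers, each tagging a captured transcript) of Cpa3, Cma1 and Mcpt8, and the mast-like ones also on Mcpt4 and Tpsb2, so the levels of these genes in those cells are a description only.

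The libraries came from non-parenchymal cells of male C57BL/6J mice that were put at 7 weeks of age on the FPC diet, which is rich in fructose, palmitate, cholesterol and trans-fat and induces steatohepatitis. Mice received 0.05% cholesterol (P-LC24) or 1.25% cholesterol (P-HC24) for 24 weeks, and were aspirated again after 8 further weeks in which both groups ate 0.05% cholesterol (I-LC32 and I-HC32). The comparison of P-HC24 with P-LC24 (Prog) addresses dietary cholesterol during progression. That of I-HC32 with I-LC32 (Int) sets earlier high against earlier low cholesterol, after 8 weeks in which both groups ate 0.05%. Int does not isolate the effect of withdrawal. Each library pooled 12 fine needle aspirates, 4 from each of 3 mice, so there was 1 library per condition and no replicate. All 4 groups ate the FPC diet, no group on a normal diet was analysed here, and no difference below has a replicate check or a p-value. Intervals are exact 95% intervals that cover counting error only.

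Mast cells and basophils are granulocytes that carry the high affinity IgE receptor and release histamine. Mast cells mature inside tissues under stem cell factor, and those of connective tissue store chymases, tryptase and carboxypeptidase A3 bound to heparin, whereas mucosal mast cells use other chymases. Basophils are short-lived blood cells that make interleukin 4 and, in mice, the granule protease encoded by Mcpt8.

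The promoters of 4 granule protease genes whose UMIs define the classes below are shown. That of Tpsb2, which the mast-like class also used, is not shown. Each sequence is the 250 bases before the annotated start of the canonical transcript, in GRCm39, 5′ to 3′ on the strand of the gene. Capitals mark matches, on either strand, to 4 spellings bound by GATA factors (AGATAA, the variant AGATAG, the variant TGATAA and the variant TGATAG), or to CATGTG and the palindrome CACGTG, which MITF binds. Cma1 lies on the minus strand at chr14:56182133-56182382, Mcpt4 on the minus strand at chr14:56299771-56300020, Cpa3 on the minus strand at chr3:20296363-20296612 and Mcpt8 on the minus strand at chr14:56322655-56322904.
Cma1: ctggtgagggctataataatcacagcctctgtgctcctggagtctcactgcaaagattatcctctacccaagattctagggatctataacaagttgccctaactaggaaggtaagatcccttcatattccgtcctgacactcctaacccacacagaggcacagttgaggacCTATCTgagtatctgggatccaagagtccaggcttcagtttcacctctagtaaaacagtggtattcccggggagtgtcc
Mcpt4: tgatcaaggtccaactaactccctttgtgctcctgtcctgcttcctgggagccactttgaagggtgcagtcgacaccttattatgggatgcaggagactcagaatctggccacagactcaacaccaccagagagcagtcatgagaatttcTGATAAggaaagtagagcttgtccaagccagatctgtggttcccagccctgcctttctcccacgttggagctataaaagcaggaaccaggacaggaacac
Cpa3: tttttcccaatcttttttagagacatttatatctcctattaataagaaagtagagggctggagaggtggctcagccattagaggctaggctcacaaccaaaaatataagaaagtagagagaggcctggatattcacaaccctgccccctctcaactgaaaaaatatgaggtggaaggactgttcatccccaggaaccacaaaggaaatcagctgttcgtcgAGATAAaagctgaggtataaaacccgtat
Mcpt8: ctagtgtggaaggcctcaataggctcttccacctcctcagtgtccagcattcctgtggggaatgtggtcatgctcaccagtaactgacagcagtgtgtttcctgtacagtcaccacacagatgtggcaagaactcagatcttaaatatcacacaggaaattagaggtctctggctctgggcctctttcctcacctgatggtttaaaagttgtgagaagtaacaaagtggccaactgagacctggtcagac

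Cma1, Mcpt4 and Cpa3 each held 1 match to the 4 GATA spellings, and Mcpt8 held none in this window. The promoters of Fcer1a, Ms4a2 and Cd200r3, not shown, held a match too. Those of Tpsb2, Hdc and Kit, not shown, held none. A match was thus in 6 of the 10 genes, against 26.2% of 21738 protein-coding promoters of the same length. CATGTG was found in Fcer1a and in 10.5% of all promoters. CACGTG was in none of the 4 promoters shown and in 6.27% of all. These are matches of letters and carry no evidence of binding.

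Cma1, Mcpt4 and Mcpt8 lie in the chymase cluster of chromosome 14, with Cma1 at 56178908 to 56182132, Mcpt4 at 56297086 to 56299770 and Mcpt8 at 56319623 to 56322730. Reads at transcript ends could be shared between copies: within the last 500 bases, Mcpt4 had a stretch of 100 identical bases with Cma2 and Cma1 a stretch of 91 with the pseudogene Gm48934. No run of 49 or more identical bases was found for the other 8 genes, although Ms4a2 shared a run of 33. Because the kit counts transcript ends, a level in CPM, the UMIs of a gene scaled to an equal total for each group of cells, does not rise with gene length.

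The 4 libraries held 7035 to 9828 barcodes, of which 4930 and 6532 at week 24 (P-LC24 and P-HC24) and 6977 and 6919 at week 32 (I-LC32 and I-HC32) passed the filters and are called kept cells, with 38423811 to 76924261 UMIs per library. Pairs of libraries shared 17 to 41 barcode sequences, and none of these was a combination cell. The high cholesterol libraries also held more macrophages: cells with at least 10 UMIs over C1qa, C1qb and C1qc and a UMI of Gata6, the factor of peritoneal macrophages, numbered 32 in P-LC24 against 337 in P-HC24, and 59 in I-LC32 against 517 in I-HC32. These counts moved with the mast-like counts below, and their part in those results was not tested. Where 4 values stand without names, the week 24 pair comes first and the low cholesterol library leads each pair.

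Most cells with a UMI of Cpa3, Cma1 or Mcpt8 held a trace. Such cells numbered 432 in P-LC24 against 1147 in P-HC24, and 567 in I-LC32 against 2021 in I-HC32, which is 8.76%, 17.6%, 8.13% and 29.2% of kept cells. Between 69.7% and 81.3% of them held a single UMI of the 3 genes. At least 10 UMIs, the limit set for a combination cell, were found in 8, 27, 14 and 19 kept cells. Just inside the limit, 2, 1, 3 and 0 cells held 10 UMIs, and just outside it 1, 1, 2 and 1 cells held 9.

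Cma1 and Mcpt8 rarely occurred together. Over all deposited barcodes, 142 reached 10 UMIs over the 3 genes, and 0 barcodes held 3 or more UMIs of both Cma1 and Mcpt8. Barcodes whose Cma1 and Mcpt8 UMIs were at least 90% Cma1, with at least 3 Cma1 UMIs, formed the mast combination, and those at least 90% Mcpt8 formed the basophil combination. The basophil combination held 24 barcodes. The mast combination held 114, in which 4 had Cma1 with fewer than 3 UMIs over Mcpt4, Tpsb2 and Cpa3. This last division was made after the values had been seen, and the remaining 110 barcodes are called mast-like.

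**Figure D1:**
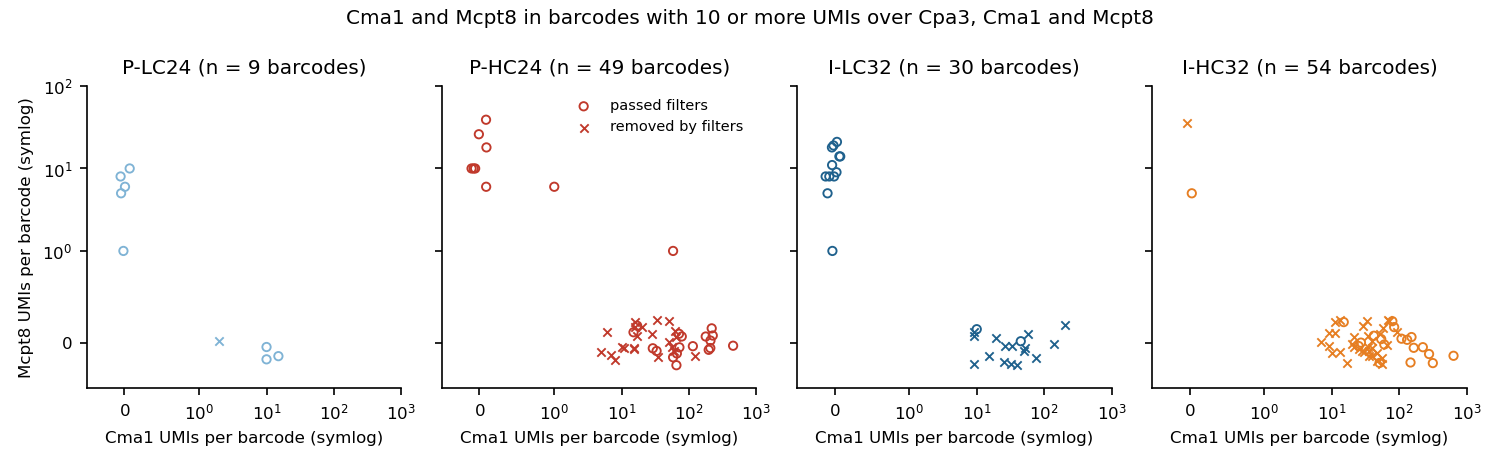
Cma1 UMIs (x axis) and Mcpt8 UMIs (y axis) of the 142 barcodes with at least 10 UMIs over Cpa3, Cma1 and Mcpt8, one panel per library, on symmetric log axes with points at 0 spread slightly; circles passed the cell filters and crosses did not. The points lie along the axes, high in Cma1 or high in Mcpt8, and P-LC24 has no mast-like barcode among its 9.

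Mast-like barcodes held transcripts of connective tissue mast cells. Cma1 and UMIs over Mcpt4, Tpsb2 and Cpa3 were required by the rule, so that 107 of the 110 barcodes held all 4 together is no finding. Of the 11 mast cell markers, the 7 that the rule did not use (Kit, Fcer1a, Ms4a2, Hdc, Gata2, Mrgprb1 and Mrgprb2) were each detected in at least 25% of the barcodes. Mast-like barcodes also held 7 of the 10 basophil markers in at least 25% of barcodes. Of these, Cpa3, Fcer1a, Ms4a2, Hdc and Gata2 are on both lists, whereas Prss34 and Cd200r3 are on the basophil list alone. Cma1, a chymase, reached 24179 CPM summed over the libraries, Mcpt4, the other chymase of connective tissue mast cells, 14658 CPM, Cpa3, carboxypeptidase A3, 10586 CPM, and Tpsb2, a tryptase, 7649 CPM. The markers of mucosal mast cells, Mcpt1 and Mcpt2, were at 0 UMIs. Taking 3 barcodes as the limit, this allows a share of up to 2.73% of barcodes with a UMI. Hepatocyte markers (Alb, Apoa1 and Ttr) and NK markers (Ncr1, Klrb1c and Klre1) were at 0 UMIs too, whereas markers of B cells (895 CPM summed over 4 genes) and macrophages (1087 CPM over 5) were present, and 9 barcodes passed the B gate. Erythroid markers were the highest of these, with 5607 CPM summed over 3 genes and Hbb-bs in 30.9% of barcodes, and the endothelial marker Pecam1 was found in 25.5%.

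The genes that were not used to choose the cells separated the classes further. Kit, the receptor of stem cell factor, was at 1270 CPM in mast-like barcodes, in 74.5% of them, and at 0 UMIs in the 24 basophil-combination barcodes, at least 84.4-fold higher against a limit of 3 UMIs. Ms4a2, the beta chain of the IgE receptor, was at 249 CPM in mast-like and 582 CPM in basophil-combination barcodes, a log2 ratio of -1.22 (interval -1.66 to -0.80). That ratio pools libraries with unequal numbers of both classes: within I-LC32 Ms4a2 was at 630 and 606 CPM, and within P-HC24 at 149 and 462 CPM. Cd200r3, an activating receptor, lay at 224 and 592 CPM, a log2 ratio of -1.40 (-1.85 to -0.97). Fcer1a, the IgE-binding chain, was 945 CPM in mast-like and 562 CPM in basophil-combination barcodes (log2 ratio 0.75, 0.43 to 1.08). Within I-LC32 it was at 1575 and 390 CPM, and within P-HC24 at 634 and 564 CPM. Hdc, which makes histamine, was at 3867 and 2784 CPM (log2 ratio 0.47, 0.33 to 0.62), and within I-LC32 at 2126 and 2047 CPM.

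**Figure D2:**
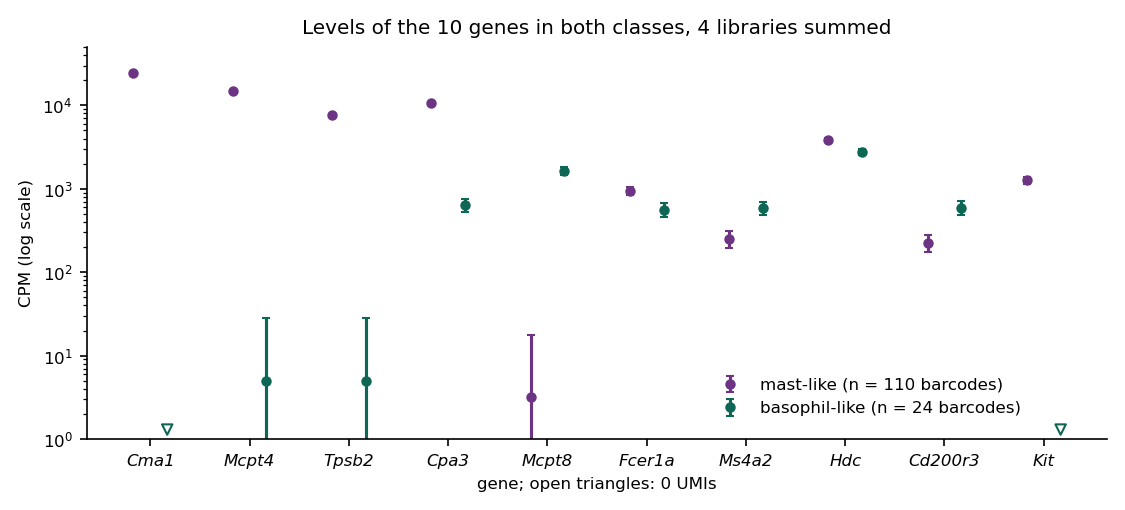
CPM on a log scale (y axis) of each of the 10 genes (x axis) in mast-like barcodes (110, purple) and basophil-combination barcodes (24, green, labelled basophil-like), 4 libraries summed, with exact 95% Poisson intervals; open triangles mark 0 UMIs. Cma1, Mcpt4, Tpsb2 and Kit are high in mast-like barcodes and at 0 or 1 UMI in the others, Mcpt8 shows the reverse, and Cpa3, Fcer1a, Ms4a2, Hdc and Cd200r3 are present in both.

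Basophil-combination barcodes held all 10 basophil markers in at least 25% of barcodes. Mcpt8 and Cpa3 among them were used by the rule, so their presence is no finding. Fcer1a, Ms4a2, Hdc and Cd200r3, which the rule did not use, occurred together in 21 of 24 barcodes. Basophil-combination barcodes also held 5 of the 11 mast cell markers in at least 25% of barcodes, namely Cpa3, Fcer1a, Ms4a2, Hdc and Gata2. Mcpt8 was at 1625 CPM there, against 1 UMI in the 110 mast-like barcodes, and Cma1 had 0 UMIs. The rules kept Cma1 and Mcpt8 apart, so these contrasts are no finding. Cpa3 was at 637 CPM, so it was present in both classes at unequal levels (log2 ratio of mast-like over basophil-combination 4.05, 3.80 to 4.32). Kit had 0 UMIs, and Mcpt4 and Tpsb2 had 1 UMI each.

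Among 15 granule proteases, 6 were found in at least 25% of mast-like barcodes (Cma1, Mcpt4, Tpsb2, Tpsg1, Cpa3 and Prss34) and 5 in at least 25% of basophil-combination barcodes (Mcpt8, Ctsg, Gzmb, Cpa3 and Prss34). Prss34, a tryptase often used as a basophil marker, was at 353 CPM in the former and 95.3 CPM in the latter. Tpsb2 was at 7649 CPM beside 151 CPM for its close relative Tpsab1. Mcpt1, Mcpt2, Mcpt9 and Gzmc were without a UMI in both classes.

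Mediator and signalling genes also differed between the classes. These values and those of lineage factors, receptors and cytokines below pool libraries with unequal numbers of both classes. The filters had removed 72 of the 110 mast-like barcodes and 1 of the 24 basophil-combination ones. The part of this in the differences was not tested. Of 13 genes for granules and mediator synthesis, 7 reached 25% of mast-like and 8 reached 25% of basophil-combination barcodes. Tph1, the first enzyme of serotonin synthesis, was at 466 CPM in mast-like and 0 UMIs in basophil-combination barcodes, and Hpgds, which makes prostaglandin D2, at 192 CPM and 0 UMIs. Ptgs2, an inducible cyclooxygenase, was at 0 UMIs in mast-like and 627 CPM in basophil-combination barcodes. Of 15 genes of IgE receptor signalling, 8 and 12 reached 25% of barcodes, and Fcer1g, the shared gamma chain, was at 1945 and 1670 CPM. Such counts depend on depth, and the median depth by library was 963 to 2797 UMIs in mast-like barcodes and at least 5445 UMIs in basophil-combination ones. The kinases Syk, Fyn and Btk reached 25% in the latter alone, yet were at 199, 123 and 66.2 CPM in mast-like and 130, 120 and 50.2 CPM in basophil-combination barcodes.

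Lineage factors and receptors differed too. Mitf, a mast cell factor, was at 454 CPM in mast-like and 0 UMIs in basophil-combination barcodes. Cebpa, a myeloid factor of basophils, was at 9.45 and 186 CPM, and Gata2, needed in both lineages, at 321 and 672 CPM. Il1rl1, the receptor of interleukin 33, was at 1680 and 85.3 CPM, and Mrgprb1 and Mrgprb2, receptors of the Mas-related family, were at 1106 and 321 CPM in mast-like barcodes and 0 UMIs in the others. Csf2rb, the common beta chain that interleukin 3 signals through, was at 53.6 and 632 CPM.

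Cytokine transcripts were abundant in both classes but not the same ones. The 13 listed cytokines and ligands summed to 9222 CPM in mast-like and 30666 CPM in basophil-combination barcodes. Ccl2 and Ccl7, chemokines for monocytes, were at 4882 and 3316 CPM in mast-like barcodes and without a UMI in the others. Ccl3 and Ccl4 were at 10668 and 16777 CPM in basophil-combination barcodes and at 3.15 and 104 CPM in mast-like ones. Il6 was at 66.2 CPM in mast-like and 677 CPM in basophil-combination barcodes, and Il4 at 280 and 662 CPM. Il13 was at 110 and 191 CPM and Tnf at 195 and 115 CPM. Il4 and Tnf were found in at least 25% of barcodes of both classes. The 6 listed eosinophil genes were at 0 UMIs apart from 10 UMIs of Prg2 in basophil-combination barcodes.

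The genes most like the 10 were those with the largest share of their kept-cell UMIs in a class, averaged over the libraries with a UMI. For the mast combination these were Pcdh10 (46.6%), Galnt18 (42.0%), Meis2 (38.3%), Mrgprb2, Hs6st2, Gnai1, Mrgprb1, Mrgprx2, Adamts9 and Cma1 (35.7%). For the basophil combination they were Mcpt8 (73.5%), Csrp3 (48.2%), Gata2 (33.4%), Il4 (30.6%), Samd13, Ms4a2, Sncaip, Fcer1a, Cd200r3 and Il13 (22.7%). The 10 marker genes themselves were not left out of this ranking. Cma1 and Mcpt8 were used to choose the cells, so their high shares were favoured by the rule and are no finding. Some shares rest on few UMIs. Csrp3 had 5 class UMIs behind its 83.3% in I-HC32, where the basophil combination was 1 kept cell. For Sncaip, the 87.5% of I-LC32 came from 7 UMIs. Libraries without a UMI of the gene were left out of its average, and the mast averages otherwise include P-LC24, whose mast combination held no mast-like cell. Pcdh10 had no UMI in P-LC24 and Galnt18 had a share of 0% there, so their order rests on unlike averages.

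The number of mast-like cells differed between libraries. Mast-combination cells made up 3 of 4930 kept cells in P-LC24 (0.0609%, interval 0.0126% to 0.178%) and 19 of 6532 in P-HC24 (0.291%, 0.175% to 0.454%). They made up 2 of 6977 in I-LC32 (0.0287%, 0.00347% to 0.104%) and 18 of 6919 in I-HC32 (0.260%, 0.154% to 0.411%). The share was 4.78-fold higher in P-HC24 than in P-LC24 (1.41 to 25.2) and 9.08-fold higher in I-HC32 than in I-LC32 (2.17 to 80.7). The intervals of each high cholesterol library and its control did not overlap in Int and overlapped slightly in Prog, where the upper limit of P-LC24 was 0.178% and the lower limit of P-HC24 0.175%.

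All 3 of the P-LC24 cells and 1 of the 2 I-LC32 cells were Cma1 without the other proteases. They held 10 to 15 Cma1 UMIs, at most 1 UMI of Mcpt4 and none of Tpsb2, Cpa3, Fcer1a, Ms4a2 or Hdc, and all 4 passed the NK gate. With these set aside, mast-like kept cells numbered 0, 19, 1 and 18, and the 0 in P-LC24 allows a share of up to 0.0748%. With 3 cells put in place of the 0, the share in P-HC24 was 4.78-fold that in P-LC24, a value without counting error. The share in I-HC32 was 18.2-fold higher than in I-LC32 (2.87 to 756).

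The cell filters removed most mast-like barcodes. Before filtering there were 0 in P-LC24 against 41 in P-HC24, and 17 in I-LC32 against 52 in I-HC32. The filters removed 22 of those in P-HC24 (53.7%, against 17.8% of all barcodes), 16 in I-LC32 (94.1% against 29.0%) and 34 in I-HC32 (65.4% against 17.5%). Of the 72 removed, 68 exceeded the limit of 10% mitochondrial UMIs. The removed barcodes were shallow, with median depths of 1664 (P-HC24), 990 (I-LC32) and 1222 UMIs (I-HC32). Without filters the Int ratio of mast-like shares fell to 3.58-fold (2.04 to 6.61). The Prog ratio was 12.1-fold with 3 barcodes put in place of the 0 in P-LC24, again without counting error. P-LC24 held 1 barcode of this kind just outside the rule, with 2 Cma1, 5 Mcpt4, 1 Tpsb2 and 12 Cpa3 UMIs in 608 UMIs and 12.7% mitochondrial UMIs.

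**Figure D3:**
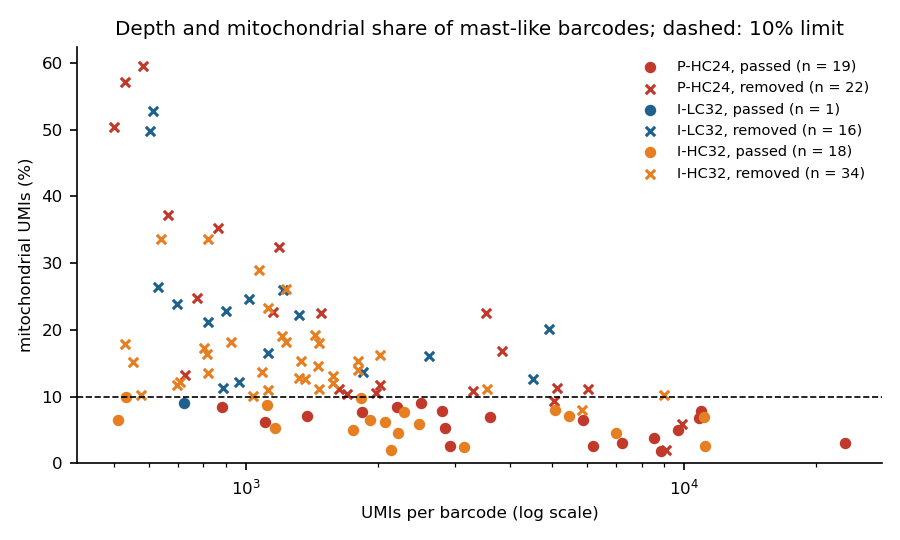
Mitochondrial share of UMIs (y axis, %) against UMIs per barcode (x axis, log scale) for the 110 mast-like barcodes, coloured by library; dots passed the filters, crosses were removed and the dashed line is the 10% limit. Of the 72 removed barcodes, 68 lie above the line, and 1 of 17 barcodes in I-LC32 passed.

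Basophil-combination cells followed another order. They numbered 4 in P-LC24 (0.0811%, 0.0221% to 0.208%) against 7 in P-HC24 (0.107%, 0.0431% to 0.221%), and 11 in I-LC32 (0.158%, 0.0787% to 0.282%) against 1 in I-HC32 (0.0145%, 0.000366% to 0.0805%). The Prog ratio was 1.32-fold (0.336 to 6.15). The share in I-LC32 was 10.9-fold that in I-HC32 (1.59 to 470). The filters passed 23 of the 24 barcodes, and the remaining I-HC32 barcode was removed as a likely doublet. The Int ratio turned on it: with this barcode, the share in I-LC32 was 4.69-fold that in I-HC32 (1.02 to 43.6).

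Mast-like cells varied widely among themselves. In the 19 kept cells of P-HC24, Cma1 ranged from 15 to 451 UMIs with a median of 72, and in the 18 of I-HC32 from 15 to 639 with a median of 96. The highest cell gave 19.1% of the class's Cma1 UMIs in P-HC24 and 24.6% in I-HC32. Hdc ranged from 0 to 101 UMIs (median 18) in P-HC24 and from 0 to 91 (median 6) in I-HC32. Kit was detected in 18 of 19 cells in P-HC24 and in 10 of 18 in I-HC32, at median depths of 3600 and 2185 UMIs.

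Over all mast-like barcodes, the Int intervals of Hdc and Ms4a2 did not include 0, and those of the other 7 genes compared did. Cma1 was at 33000 CPM in I-LC32 and 32235 CPM in I-HC32, beside 17516 CPM in P-HC24, a log2 Int ratio of -0.03 (-0.14 to 0.08). Mcpt4, Tpsb2 and Cpa3 had Int ratios of -0.10, 0.06 and -0.05, with intervals that included 0. Hdc was at 2126 CPM in I-LC32 and 3566 CPM in I-HC32, beside 4321 CPM in P-HC24 (log2 Int ratio 0.75, 0.33 to 1.18), and Ms4a2 at 630 and 316 CPM, beside 149 CPM (log2 Int ratio -0.99, -1.88 to -0.05). None of the 9 members that could be compared lay past 2-fold, against 23.3% of 941 genes that were higher and 3.72% that were lower by that much. Cma1, Mcpt4, Tpsb2 and Cpa3 had been used to choose these barcodes. Mast-like barcodes of I-LC32 were the shallowest, with a median of 963 UMIs against 1402 in I-HC32 and 2797 in P-HC24. No Prog ratio could be given, since P-LC24 had no mast-like barcode.

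The makeup of the protease transcripts differed between P-HC24 and the week 32 libraries. Of the UMIs of Cma1, Mcpt4, Tpsb2 and Cpa3 in mast-like barcodes, Cma1 gave 35.7% at week 24 (P-HC24, 34.7% to 36.7%), and at week 32 gave 48.1% (I-LC32, 45.8% to 50.5%) and 48.5% (I-HC32, 47.3% to 49.6%). Tpsb2 gave 15.9%, 10.5% and 11.3%, and Cpa3 20.5%, 16.9% and 16.8%. The week 32 libraries were alike and stood apart from P-HC24. Mice of P-HC24 ate 1.25% cholesterol at sampling, and those of I-LC32 and I-HC32 ate 0.05%. Week, cholesterol at sampling and library cannot be told apart.

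In basophil-combination cells the counts were small. Mcpt8 was at 29, 119, 135 and 5 UMIs (1194, 1720, 1462 and 643 CPM). Cpa3 was at 1317 CPM in P-LC24 and 419 CPM in P-HC24 (log2 ratio -1.65, -2.43 to -0.88), and was the 1 of the 6 genes compared that lay past 2-fold in Prog, against 19.7% of 655 genes higher and 17.7% lower. It was among the genes that chose the cells. Fcer1a was at 1029 and 564 CPM (log2 ratio -0.87, -1.63 to -0.08) and Hdc at 4692 and 3049 CPM (-0.62, -0.96 to -0.28). These sums turn on 1 P-HC24 cell of the macrophage gate that held 33288 UMIs, with 9991 in the next. With each cell weighted equally the log2 ratio of Hdc was 0.143 and that of Fcer1a -0.09, and as mean UMIs per cell they were 0.0809 and -0.17. The median Hdc level per cell was 4895 CPM in P-LC24 and 5679 CPM in P-HC24. In Int, which rests on the 1 kept cell of I-HC32, Mcpt8 alone of the 6 lay past 2-fold (log2 ratio -1.18, -2.83 to 0.07), against 17.7% of 683 genes higher and 25.9% lower, and with the removed barcode its ratio was 1.05.

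Summed over all kept cells, the 4 mast proteases were higher in the high cholesterol library of each pair. Cma1 was at 13.8 CPM in P-LC24 against 53.5 in P-HC24, and at 9.32 in I-LC32 against 59.3 in I-HC32, a log2 ratio of 1.95 in Prog (1.82 to 2.09) and 2.67 in Int (2.55 to 2.80). Mcpt4 was at 5.36, 42.5, 5.97 and 37.0 CPM (log2 ratios 2.99 and 2.63), Tpsb2 at 3.28, 25.1, 3.45 and 19.6 CPM (2.94 and 2.50) and Cpa3 at 5.54, 29.8, 4.42 and 22.4 CPM (2.43 and 2.34). These sums do not tell more cells from more RNA per cell or from RNA outside cells. Of the 10 genes, 7 were at least 1.2-fold higher and 2 lower in Prog, against 17.8% of 16826 genes higher and 52.7% lower, and 7 were higher and 3 lower in Int, against 19.9% of 17473 genes higher and 26.5% lower. Nothing is read from these counts, because the genes were chosen with such values known. The median log2 ratio of all genes was -0.30 in Prog and -0.04 in Int, and that of the 10 was 1.10 and 0.96.

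In Int, Mcpt8, Cd200r3 and Ms4a2 were lower in the high cholesterol library, whereas the mast proteases were higher. In Prog, Mcpt8 was higher there, as the mast proteases were. Mcpt8 was at 1.12 CPM in P-LC24 against 2.49 in P-HC24, and at 2.77 in I-LC32 against 0.091 in I-HC32, a log2 ratio of 1.15 in Prog (0.66 to 1.68) and -4.93 in Int (-6.26 to -3.85). The I-HC32 sum was 7 UMIs, and 1 barcode removed there as a likely doublet held 36. The Int ratio was -2.30 with doublets kept and -2.76 with a mitochondrial limit of 5%. Cd200r3 was at 1.59, 2.03, 2.96 and 1.05 CPM (log2 ratios 0.36 and -1.49), and Ms4a2 at 1.87, 1.49, 1.87 and 0.689 CPM (-0.33 and -1.44). Their Prog intervals included 0, at -0.10 to 0.82 for Cd200r3 and -0.79 to 0.13 for Ms4a2. Fcer1a, which both classes carried, was at 1.56, 3.22, 1.79 and 2.50 CPM (1.04 and 0.48).

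**Figure D4:**
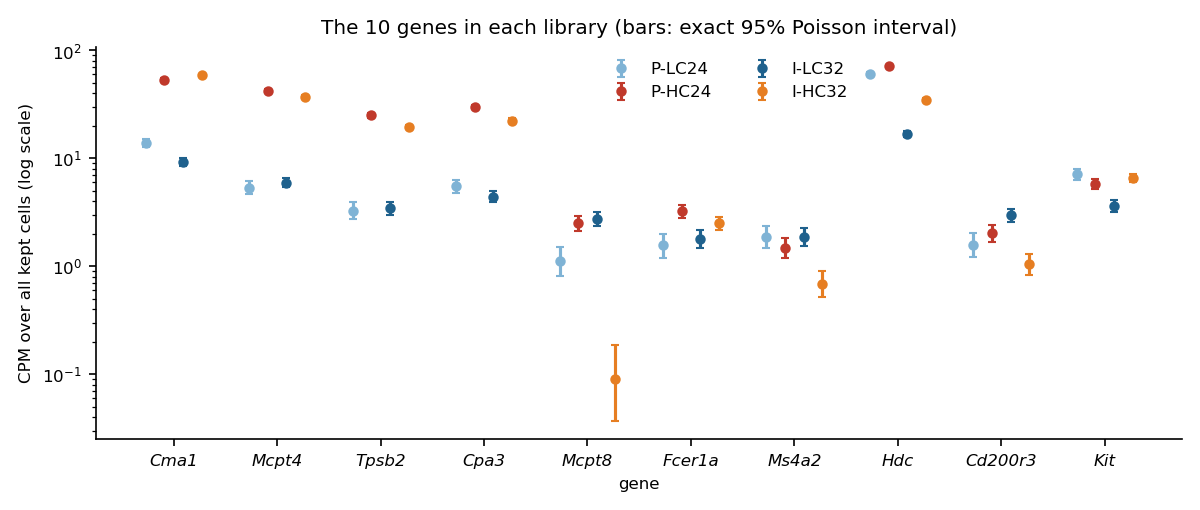
CPM on a log scale (y axis) of the 10 genes (x axis) over all kept cells of each library, with exact 95% Poisson intervals. Cma1, Mcpt4, Tpsb2 and Cpa3 are higher in P-HC24 and I-HC32 than in their controls, and Mcpt8 is lowest in I-HC32 at 0.091 CPM.

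Lists of related genes, set with earlier results known, were read over all kept cells. Of the 15 granule proteases, 11 could be compared, of which 9 were at least 1.2-fold higher and 2 lower in Prog (median log2 ratio 2.43) and 7 higher and 4 lower in Int (2.34). The shares over all genes were 17.8% higher with 52.7% lower for Prog, and 19.9% higher with 26.5% lower for Int. Tpsg1, a tryptase, had log2 ratios of 4.78 and 3.34 and Gzmb, a protease of cytotoxic lymphocytes, -1.74 and -2.10, beside 234, 93, 144 and 61 cells in the NK gate. Of 17 surface receptors 15 could be compared, with 8 higher and 6 lower in Prog (median 0.29) and 8 higher and 5 lower in Int (median 0.29). For the mast cell receptors Mrgprb1 and Il1rl1 the log2 ratios were 2.77 and 1.64 in Prog and 2.77 and 1.59 in Int. Of 15 IgE receptor signalling genes, 3 were higher and 10 lower in Prog (median -0.30) and 3 higher and 4 lower in Int (median -0.02). The medians of all genes were -0.30 in Prog and -0.04 in Int. Lyn, at 687 CPM in mast-like barcodes, is also used by B cells, which were the largest gate in each library. The part of B cells in these values was not tested.

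Most of the mast transcripts in the control libraries were outside combination cells. Of the Mcpt4 UMIs in kept cells, 205 of 206 in P-LC24 and 347 of 367 in I-LC32 lay outside, against 748 of 2678 in P-HC24 (27.9%) and 1691 of 2849 in I-HC32 (59.4%). Outside cells with a UMI of Cma1, Mcpt4, Tpsb2 or Cpa3 made up 13.6% in P-LC24 against 28.3% in P-HC24, and 13.9% in I-LC32 against 46.9% in I-HC32. After each cell was thinned to 3000 UMIs, which left out 215 to 321 cells per library, the shares were 7.44%, 14.0%, 7.09% and 22.1%. In cells of the B gate, which should lack these proteases, the shares were 11.1%, 28.0%, 13.1% and 47.2%, at median depths of 5787, 6561, 6639 and 8637 UMIs. The T gate gave 10.3%, 24.9%, 13.3% and 44.2%, and the macrophage gate 12.3%, 30.6%, 13.2% and 47.7%, at 20736 to 23874 UMIs. Thinned, the B gate gave 6.12%, 14.2%, 6.56% and 22.6%, the T gate 4.60%, 13.8%, 6.59% and 27.1%, and the deeper macrophage gate 0%, 6.96%, 1.35% and 11.0%. Because cells of the B gate held such UMIs too, a single UMI of these genes was not taken by itself as expression. The source of these UMIs was not tested. The shares over all outside cells include the NK gate, which held 279 of the 495 outside Cma1 UMIs in P-LC24 and is described below.

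The makeup of the 4 proteases was also read in the B gate. Cma1 gave 33.0% of their UMIs in P-LC24 (28.4% to 37.8%) against 36.3% in P-HC24 (34.0% to 38.6%), and 31.7% in I-LC32 (28.3% to 35.2%) against 36.4% in I-HC32 (34.8% to 38.0%), with intervals that overlapped. Cpa3 gave 19.7% in P-LC24 (15.9% to 23.9%) and 14.4% in I-HC32 (13.3% to 15.6%), with intervals that did not overlap. In P-HC24 the share of Cma1 was close to the 35.7% of its mast-like barcodes. In I-LC32 and I-HC32 that share was below the 48.1% and 48.5% of theirs, with intervals that did not overlap. P-LC24, which had no mast-like barcode, held 406 UMIs of the 4 proteases in its B gate. Mcpt8 had 1 to 3 UMIs in the B gate of each library.

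Cells of the NK gate stood apart. They held 279 Cma1 UMIs beside 5 of Mcpt4, 5 of Tpsb2 and 7 of Cpa3 in P-LC24, so Cma1 gave 94.3% of the 4 (91.0% to 96.6%), and the other libraries gave 79.6%, 92.3% and 57.4%. The level of Cma1 in this gate was 187, 243, 179 and 142 CPM, against 6.06, 16.4, 5.78 and 25.8 CPM in the B gate. It was detected in 52.4%, 54.8%, 44.8% and 41.0% of 231, 93, 143 and 61 cells, against 3.75% to 22.2% of B gate cells. The Prog and Int log2 ratios of this level were 0.38 (0.05 to 0.69) and -0.33 (-0.80 to 0.13), unlike the ratios of 1.95 and 2.67 over all kept cells; the difference was not tested.

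Over the 4 libraries, 110 cells outside the combination classes held at least 3 Cma1 UMIs and no UMI of Mcpt4, Tpsb2, Cpa3 or Mcpt8. Of these, 75 were in the NK gate and 24 in the B gate, 76 had a UMI of Ncr1, an activating NK receptor, and 77 of Gzma, a granzyme. By library they numbered 44, 19, 25 and 22, of which 40, 10, 23 and 2 were in the NK gate and 3, 7, 1 and 13 in the B gate.

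**Figure D5:**
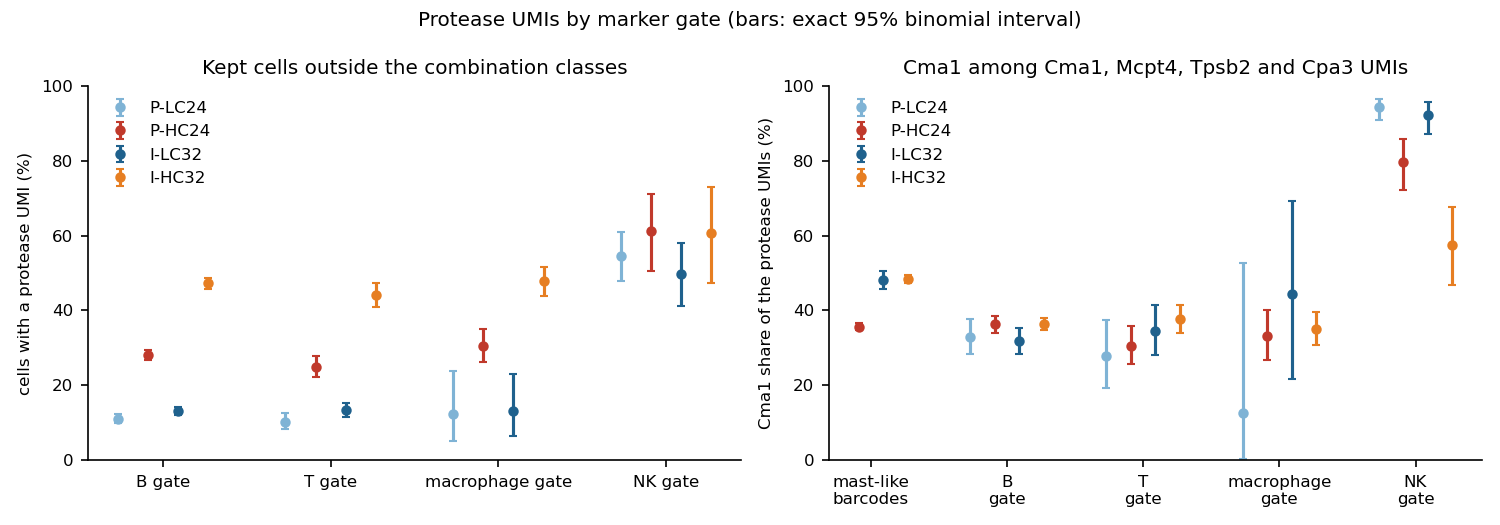
Left, share of kept cells outside the combination classes with a UMI of Cma1, Mcpt4, Tpsb2 or Cpa3 (y axis, %), by marker gate (x axis) and library; right, share of Cma1 among the UMIs of these 4 genes (y axis, %) in mast-like barcodes and in each gate, with exact 95% binomial intervals. In the B gate the share of cells rises to 47.2% in I-HC32, and Cma1 gives 94.3% of the protease UMIs in the NK gate of P-LC24 against 33.0% in its B gate.

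Hdc was expressed by other cells. Of its UMIs in kept cells, 81.0% to 94.3% lay outside the combination cells. In the neutrophil gate it was at 2459, 2622, 1747 and 1802 CPM, detected in 90.6% to 98.4% of cells, against 3867 CPM in mast-like barcodes and 2.58 to 4.68 CPM in the B gate. In the macrophage gate it was at 125, 137, 120 and 139 CPM. Of 276 outside cells with at least 10 Hdc UMIs, 140 were in the neutrophil gate and 85 in the macrophage gate, and 84 held Gata6. The macrophage gate gave 164 of 2323 Hdc UMIs in P-LC24 and 1908 of 2697 in I-HC32, and the number of its cells outside combination classes was 57 and 639. Over all kept cells Hdc was at 60.5, 71.5, 16.8 and 35.1 CPM (log2 ratios 0.24 and 1.06). The Hdc sums hold these cell types together, and the neutrophil gate held 126, 123, 32 and 21 cells.

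Kit was also found elsewhere. In the NK gate it was at 110, 58.2, 117 and 121 CPM, in 16.1% to 31.1% of cells. In the T gate it was at 0.782, 7.60, 0.693 and 32.1 CPM. Of 89 outside cells with at least 4 Kit UMIs, 31 were in the NK gate, 25 in the T gate and 23 in no gate, and 25 held both Gata3 and Cd3e, all of them in P-HC24 and I-HC32. Over all kept cells Kit was at 7.16, 5.79, 3.63 and 6.59 CPM (log2 ratios -0.31 and 0.86), and mast-like cells gave 0 of 275, 194 of 365, 1 of 223 and 67 of 507 of its UMIs.

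Basophil genes also occurred together in cells below the limit of 10 UMIs. Of 28 outside cells with at least 2 Ms4a2 UMIs, 23 were in no gate, and 25 held Fcer1a, 27 Hdc, 23 Cd200r3, 20 Cpa3 and 17 Mcpt8. They numbered 9, 7, 11 and 1, with the 1 in I-HC32, the library with the fewest basophil-combination cells. The thresholds of 2, 3, 4 and 10 UMIs used for outside cells were set after the values had been seen.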

How the data were processed

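Cells of pooled liver aspirates were counted with a 3′ droplet kit (10x Genomics, v3.1). The authors made raw UMI counts per gene and cell and deposited them without normalization, 1 matrix per library. Their processing notes name Cell Ranger 9.0.1, Seurat 5.3 and GRCm39. All downstream steps were run here on these counts. Genes found in fewer than 3 cells were left out when the cell filters and doublet scores were computed. Levels and totals used all genes. Cells with at least 500 UMIs, at least 300 genes and at most 10% mitochondrial UMIs were kept. Doublets were ranked with Scrublet in scanpy 1.11.5, and a share of 0.8% per 1000 cells was removed.

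A combination cell held at least 10 UMIs over Cpa3, Cma1 and Mcpt8. It was of the mast or basophil combination where at least 90% of its Cma1 and Mcpt8 UMIs, and at least 3, came from Cma1 or Mcpt8. Other cells were placed in marker gates for B, T, macrophage, NK, neutrophil and erythroid cells. The members and the gene lists were chosen with earlier results of these data known. Named genes were the 10 members, listed genes with the values that separate the classes, and the 10 genes with the largest mean share of UMIs in each class (at least 30 UMIs; without genes of antigen receptors, haemoglobins or mitochondria). Those picked from a list for the text were picked after their values were seen.

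Levels are UMIs summed per library and class, as CPM. Log2 ratios are of CPM, with exact conditional 95% intervals. Shares have exact Clopper-Pearson intervals and sums exact Poisson intervals. A gene counted as compared where it had at least 20 UMIs over both libraries and, in a class, was found in at least 10% of the cells. With 1 library per condition no test between conditions was possible. Kept cells held 38423811 to 76924261 UMIs per library. Alternatives were the mitochondrial limit, the doublet step, the UMI limit of a combination cell, the scaling, the filter on low counts and thinning to 3000 UMIs. Promoters were read from the GRCm39 genome with GENCODE annotation, and not all of them are reported here. Software was Python 3.11.15, numpy 2.4.6, pandas 2.3.3, scipy 1.17.1 and matplotlib 3.10.9. The summing and ratio steps were tested on simulated data.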

Additional observations from a re-analysis of the deposited data

Results flagged for a closer look

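Over all kept cells, Mcpt8, Cd200r3 and Kit had log2 ratios of opposite sign in Prog and Int. The share of all genes with opposite signs is not given here, so nothing is read from their number. With 1 library per condition these differences were not tested. Mcpt8 had a log2 ratio of 1.15 in Prog and -4.93 in Int, where it was -2.30 with doublets kept and -2.76 with a mitochondrial limit of 5%. Cd200r3 had 0.36, with an interval that included 0 (-0.10 to 0.82), and -1.49. Kit had -0.31 and 0.86, and its Prog ratio was 0.00253 as mean UMIs per cell. With a mitochondrial limit of 5%, Ms4a2 (0.0687 and -1.84) and Fcer1a (1.28 and -0.22) also had opposite signs.

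Mast-like barcodes were found among those that the cell filters removed, 22 in P-HC24 against 0 in P-LC24, and 34 in I-HC32 against 16 in I-LC32. Most of them, 68 of 72, exceeded the limit on mitochondrial UMIs.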

How the results depend on the processing

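No paired analysis was possible because each condition had 1 library, and for the same reason no library could be left out. Counting error and cell numbers limit every value, and the shares of mast-combination cells moved beyond their counting intervals under 15 alternatives. In P-LC24 the share was 0.345% with a limit of 5 UMIs and 0% with a limit of 20. In I-LC32 it was 0.172% with a limit of 5 UMIs, 0.113% with a mitochondrial limit of 20% and 0.183% without filters. In I-HC32 it was 0.520% with a limit of 5 UMIs, 0.113% and 0.594% with mitochondrial limits of 5% and 20%, and 0.620% without filters, and in P-HC24 it was 0.516% without filters. When at least 3 UMIs over Mcpt4, Tpsb2 and Cpa3 were required, an alternative added after the data had been seen, the share was 0% in P-LC24, and over all barcodes 0%, 0.516%, 0.173% and 0.620%. With a limit of 20 UMIs the share of basophil-combination cells was 0% in P-LC24, 0.0717% in I-LC32 and 0% in I-HC32. Of the other alternatives, 21 for the mast and 25 for the basophil shares moved less than the counting interval.

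Some log2 ratios changed sign. Over all kept cells, Ms4a2 in Prog was 0.0687 and Fcer1a in Int -0.22 with a mitochondrial limit of 5%, and Kit in Prog was 0.00253 as mean UMIs per cell. Ms4a2 in Int was -0.70 in mast-combination cells with each cell weighted equally. In basophil-combination cells Hdc in Prog was 0.0809 as mean UMIs per cell and 0.143 with each cell weighted equally. Int ratios there rest on 1 or 2 cells in I-HC32. With doublets kept and with a mitochondrial limit of 5%, Mcpt8 in Int was 1.05 and 0.77, Fcer1a 1.18 and 0.98 (from -0.01), and Cd200r3 -0.30 and -0.50 (from 0.31). With each cell weighted equally Cd200r3 was -0.17 and Cpa3 -0.0041 (from 0.43).

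Other ratios kept their sign and moved by over 1.5 times. Over all kept cells these were, with a mitochondrial limit of 5%, Mcpt8 in Prog at 1.78, and in Int Cma1 at 1.97, Kit at 0.24 and Mcpt8 at -2.76, which was -2.30 with doublets kept. In basophil-combination cells in Prog, as mean UMIs per cell, Cpa3 was -0.95, Mcpt8 1.23, Fcer1a -0.17, Ms4a2 -0.13 and Cd200r3 -0.05, and with each cell weighted equally Mcpt8 was 1.25 and Fcer1a -0.09. In Int, with doublets kept, Ms4a2 was -0.04. In mast-combination cells the Int ratios set against 2 cells of I-LC32 fell, with each cell weighted equally, to between 0.24 for Kit and 2.39 for Hdc, apart from Ms4a2 above. The causes were not tested.

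The number of genes past 2-fold in mast-combination cells sets mast-like cells in Prog against 3 NK-gate cells, and in Int against 2 cells of which 1 was in the NK gate, so it is no comparison of mast-like cells. The numbers, 664 in Prog and 249 in Int, were 95 and 36 with at least 100 UMIs, and 7713 and 6992 without a filter, as fewer or more genes were compared. Genes past 1.2-fold over all kept cells, 11864 and 8115, numbered 19246 and 14971 without a filter, and 6339 and 4003 past 1.5-fold. The share of outside cells with a protease UMI was 7.44%, 14.0%, 7.09% and 22.1% after thinning.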

Other observations

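In mast-like barcodes, 219 of 941 genes (23.3%) were at least 2-fold higher in I-HC32 than in I-LC32 and 35 (3.72%) at least 2-fold lower. Of the listed genes outside the 10, Tpsg1, Ltc4s, Alox5ap, Inpp5d, Mitf, Cebpb and Ccl7 were among the higher and Tnf among the lower, and values are given for 3. Ccl7 was at 2560 CPM in I-LC32 and 5354 CPM in I-HC32 (log2 ratio 1.06, interval 0.69 to 1.46), Mitf at 158 and 513 CPM (1.70, 0.27 to 3.63) and Alox5ap, which feeds leukotriene synthesis, at 78.8 and 590 CPM (2.91, 1.00 to 5.98, from 2 UMIs in I-LC32). Hbb-bs, a haemoglobin gene, was also higher there (log2 ratio 3.11), and its part in these differences was not tested. These genes were picked after their values had been seen.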
